A study of Homo sapiens with 36 samples.

Results

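The genes described here encode the proteins of the mitochondrial ribosome, in MIAPACA-2 (MIA PaCa-2), an established human pancreatic cancer cell line. They were chosen by name alone: every row of the count table whose Ensembl identifier maps to a symbol of the form MRPL or MRPS followed by a number and, for some, a letter A to C, with pseudogenes left out. This gave 78 genes of the 61544 rows, of which 49 carry an MRPL name (large subunit) and 29 an MRPS name (small subunit). All 78 are protein-coding in the annotation, and all 78 were among the 20767 genes that passed the filter on low counts.

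The mitochondrial ribosome makes the few proteins that the mitochondrial genome encodes, all of them parts of the respiratory chain and the ATP synthase. Its 2 ribosomal RNAs are transcribed inside the organelle, while its proteins are encoded in the nucleus, made on cytosolic ribosomes and imported. Some of these proteins have counterparts in bacterial ribosomes, and others are found only in mitochondria. ETS-family factors (GABP), NRF1 and YY1 are textbook regulators of nuclear genes for mitochondria.

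The study concerns loss of PELO or of HBS1L where the SKI complex, a cytosolic RNA decay helper, is unstable. The PELO and HBS1L proteins act together to split cytosolic ribosomes that have stalled on a messenger. All cells carried doxycycline (dox) inducible Cas9 with 1 guide, which was a non-targeting control (NTC, here the control line), a guide against PELO or a guide against HBS1L, and all were grown in medium with tetracycline-free serum. Each line was sampled at 48 h and at 96 h, without dox or with 2 µg/mL dox, giving 12 groups of 3 libraries of polyadenylated RNA, 36 in all. Whether a line is a clone or a pool of cells, and whether libraries of a group came from separate cultures, is not given in the sources used here, so the p-values below measure the spread between libraries, which may be technical. The 48 h and 96 h libraries carry separate blocks of library numbers, and time and block cannot be told apart.

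Depth, in units of 1e+06 counts, was 45.4 to 66.7 per library, except 107.4 in 1 PELO library (96 h, dox, replicate 2). HBS1L message fell in the HBS1L line beyond the control line by 1.67 at 48 h and by 1.77 at 96 h (log2, adjusted p = 2.23e-25 and 3.18e-26, edgeR). PELO message in the PELO line at 48 h was at 23.7 to 26 CPM (counts scaled to library size) without and 20.2 to 20.9 CPM with dox, which do not overlap, and no other group had a library below 22.9 CPM. It also fell with dox in the control line (27.5 ± 0.961 to 24.7 ± 0.903 CPM, log2 change -0.16, adjusted p = 0.022, edgeR), and the difference from the control line did not pass the test (-0.13 at 48 h, adjusted p = 0.185, and 0.01 at 96 h, adjusted p = 0.916, edgeR). HBS1L message rose in the PELO line at 96 h (0.51, adjusted p = 2.86e-12, edgeR). Of the epithelial markers KRT8 and KRT18 had at least 39311 counts in every library, while EPCAM and CDH1 had at most 3. The leukocyte marker PTPRC and the endothelial marker PECAM1 had at most 3 counts, while the endothelial marker ENG had 2203 to 4550. LUM and DCN, markers of fibroblasts, had at most 3 counts as well. COL1A1 had 3 to 67 counts, PDGFRB 1 to 21, COL3A1 69 to 967, COL1A2 1612 to 14068, CD14 22.5 to 475 and CDH5 40 to 2333. With the control line subtracted, in the PELO line 3 of 4 measured fibroblast genes, 2 of 2 endothelial genes and the 1 measured leukocyte gene fell at each time, and 1 fibroblast gene rose at 48 h. Of 4 measured epithelial genes 1 rose and 1 fell at 48 h and 3 fell at 96 h. In PELO cells alone at 48 h COL1A2 (-0.65 ± 0.05), COL3A1 (-1.61 ± 0.09), CD14, ENG, CDH5 and KRT19 fell and CLDN4 rose. The low-count genes COL1A1 and PDGFRB did not pass there (adjusted p = 0.501 and 0.7, edgeR). The part of these marker genes in the results was not tested.

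In 8 groups 1 library stood apart from the other two. By chi-square per gene, these libraries were at least 3 times as far from both others as those were from each other. The distances were 23.1 and 25.6, against 2.35 between the others, for PELO 48 h no-dox replicate 3, and 23.4 and 24.2, against 2.07, for PELO 48 h dox replicate 1. For PELO at 96 h they were 21.6 and 23.9 against 2.79 (no-dox replicate 3) and 18.3 and 18.9 against 5.17 (dox replicate 1). For the control line at 96 h they were 20.2 and 26.4 against 5.17 (no-dox replicate 3) and 18 and 19.1 against 5.55 (dox replicate 3). For HBS1L dox replicate 3 they were 7.1 and 7.41 against 2.36 at 48 h and 11.7 and 13.7 against 3.38 at 96 h. The counts below use all libraries and are also given without these 8, a choice made after the data were seen.

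Stretches of the promoters are shown first, because the same short element, the ETS core, stands in genes that fell and in genes that rose. RefSeq promoter windows (GRCh38.p14, 250 bases before to 50 bases after the annotated start) were found for 69 of the 78 genes; MRPS28, MRPL10, MRPL23, MRPL13, MRPL21, MRPL35, MRPL2, MRPL15 and MRPS36 had none. The 102 bases that end 2 bases into the transcript are printed 5′ to 3′ on the gene's strand, with the ETS core CCGGAAG (or its reverse, CTTCCGG) and the NRF1 element (GCGCA, any base, GCGC) in capitals. With the control line subtracted, the first 3 genes were lower in the PELO line at both times. The 48 h call of MRPL40 was lost within the PELO line alone (-0.03 ± 0.06). MRPL47 and MRPS31 were higher at both times (their 48 h calls were lost under 4 and 12 of 21 alternatives). MRPS12 and MRPL17 were higher at 96 h, with the call of MRPL17 lost under 4 of 21. MRPS17, which had the largest rise at 96 h, shows a window with neither element.
MRPL16, chr11:59810777-59810878, minus strand: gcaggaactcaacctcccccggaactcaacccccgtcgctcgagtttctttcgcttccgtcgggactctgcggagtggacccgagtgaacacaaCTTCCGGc
MRPS34, chr16:1773133-1773234, minus strand: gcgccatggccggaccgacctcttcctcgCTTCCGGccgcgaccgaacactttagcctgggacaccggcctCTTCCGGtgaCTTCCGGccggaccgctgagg
MRPL40, chr22:19432445-19432546, plus strand: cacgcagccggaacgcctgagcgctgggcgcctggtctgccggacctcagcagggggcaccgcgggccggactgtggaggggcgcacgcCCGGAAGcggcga
MRPL47, chr3:179604637-179604738, minus strand: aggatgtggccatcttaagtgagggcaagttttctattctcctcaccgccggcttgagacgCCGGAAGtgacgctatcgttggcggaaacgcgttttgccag
MRPS31, chr13:40771189-40771290, minus strand: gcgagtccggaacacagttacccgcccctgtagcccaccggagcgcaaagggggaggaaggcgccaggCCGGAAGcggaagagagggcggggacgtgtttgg
MRPS12, chr19:38930844-38930945, plus strand: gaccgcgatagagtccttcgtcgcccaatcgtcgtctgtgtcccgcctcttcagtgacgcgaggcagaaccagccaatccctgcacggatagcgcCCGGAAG
MRPL17, chr11:6683339-6683440, minus strand: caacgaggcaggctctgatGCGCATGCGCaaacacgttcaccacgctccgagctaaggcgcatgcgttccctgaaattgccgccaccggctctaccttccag
MRPS17, chr7:55951777-55951878, plus strand: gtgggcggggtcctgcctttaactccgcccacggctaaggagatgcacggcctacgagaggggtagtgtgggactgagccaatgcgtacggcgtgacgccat

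Over the whole windows, on both strands, the ETS core was found in 29 of 69 member windows (42.0%), against 14.4% of 15301 protein-coding windows and 10.7% of all 27305 windows of the same length. The YY1 element AAGATGGCG was found in 13 of 69 windows (18.8%), against 2.8% of protein-coding windows. NRF1 matches were found in 8 of 69 (11.6%, against 8.61%), the E-box CACGTG in 6 of 69 (8.7%, against 8.87%) and an ATF4-type element TGATGNAAN in 1 of 69 (1.45%, against 2.54%). Of the 39 ETS matches, 27 lay within 100 bases before the start. The ETS core stood in 9 of 22 windows of genes lower in the PELO line at 96 h (40.9%), in 7 of 18 of those higher (38.9%) and in 13 of 29 of the others (44.8%). The YY1 element stood in 18.2%, 16.7% and 20.7% of the same 3 sets. The E-box stood in 13.6% of the lower, 16.7% of the higher and 0 of the 29 others. A match is a description of the letters only.

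**Figure D1:**
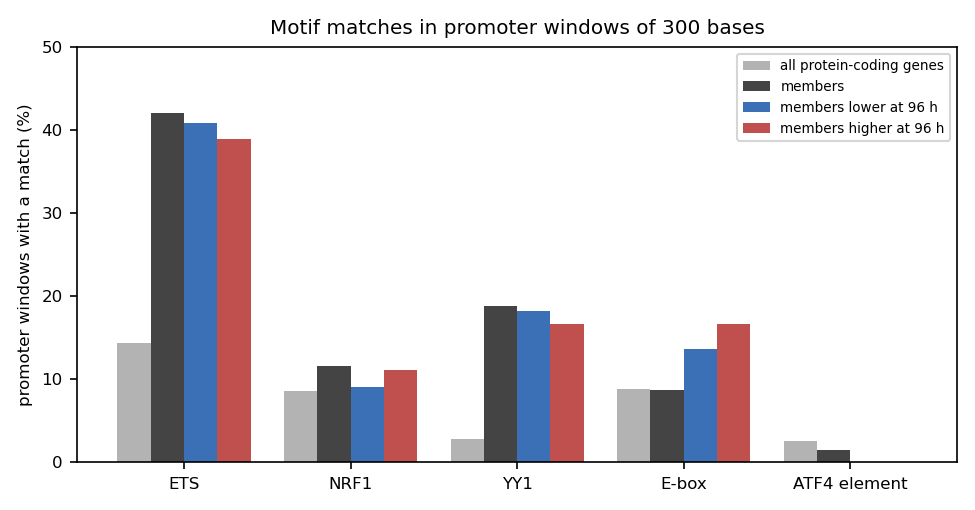
Share of promoter windows of 300 bases that hold a match (y axis, percent) for 5 motifs (x axis), in 15301 protein-coding genes (grey), the 69 members with a window (black), the 22 lower (blue) and the 18 higher (red) in the PELO line at 96 h. ETS matches stand in 42.0% of members and 14.4% of protein-coding genes, and the blue and red bars for ETS are 40.9% and 38.9%.

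Members differed widely in level and little between groups. Levels are given as CPM, counts relative to library size after TMM scaling. Per kilobase of principal transcript the median member had 37.8 CPM. MRPL3, the counterpart of a bacterial protein next to the peptidyl transferase centre, was highest at 150 CPM per kb, followed by MRPL51 at 114. MRPL42 was lowest at 3.18 CPM per kb, with a long annotated transcript of 15.6 kb, followed by MRPS11 at 5.33. The ratio of a member's highest to its lowest group mean was 1.44 for the median member and at most 2.05, for MRPL18, from 46.4 CPM in the control line without dox at 48 h to 95.1 CPM in the PELO line with dox at 96 h. The PELO line with dox at 96 h was the highest group for 30 members and the lowest for 9. The control line without dox at 48 h was the lowest for 35. Shares of all genes with their extremes in these groups are not given here, so these counts have no baseline.

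Summed over the 78 genes, the messages overlapped between dox and no dox in the PELO line. For PELO cells the 48 h sum was 4444 ± 269 CPM untreated and 4420 ± 204 CPM after dox (SD, n = 3). The 96 h sums were 5006 ± 240 and 5217 ± 221 CPM. The ranges overlapped each time. At 48 h the no-dox sums were 4254, 4327 and 4752 CPM and the dox sums 4187, 4507 and 4565 CPM, and without the replicates that stand apart (4752 and 4187) the dox sums lay above the others. At 96 h they were 4877, 4858 and 5282 CPM without and 5469, 5055 and 5127 CPM with dox, and without the 2 replicates that stand apart (5282 and 5469) the dox sums again lay above. Control cells had 48 h sums of 4184 ± 119 and 4458 ± 130 CPM, whose ranges did not overlap, and 96 h sums of 5185 ± 260 CPM after dox against 4901 ± 149 CPM untreated, whose ranges did. Without the 2 control replicates that stand apart the 96 h control sums were 4941 and 5157 CPM after dox and 4760 and 4886 CPM untreated, with no overlap. HBS1L cells went from 5035 ± 95.1 to 4915 ± 63.1 CPM (48 h). Their 96 h sums were 4903 ± 47.6 CPM after dox against 4699 ± 132 CPM untreated. The HBS1L ranges did not overlap at either time, and lay lower after dox at the earlier time and higher at the later one. The summed large-subunit level was 1.38 to 1.55 times the small-subunit one over all 36 libraries. That ratio was lower at 48 h than at 96 h in each of the 6 pairs of groups with the same line and dox.

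**Figure D2:**
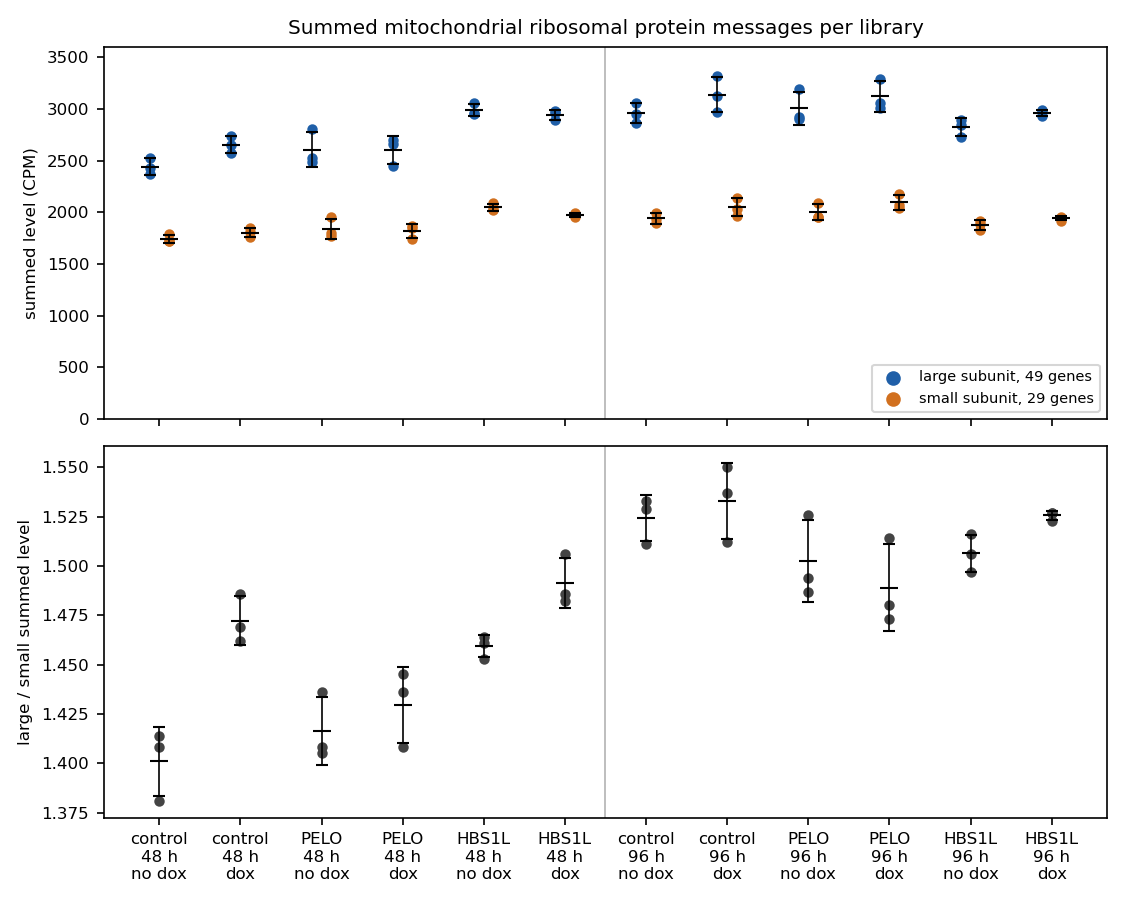
Upper panel: summed level of the 49 large-subunit (blue) and 29 small-subunit (orange) genes in CPM, 1 point per library, with the mean and SD of 3 libraries; lower panel: their ratio, on an axis that does not start at 0. The sums with and without dox overlap in the PELO line when all 3 libraries of a group are taken, and the ratio runs from 1.38 to 1.55.

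The change with dox in the control line came first, since every response is measured against it. These cells also carried inducible Cas9 and a non-targeting guide, so dox and induced Cas9 cannot be told apart. In the control line at 48 h, 35 of 78 members rose (44.9%) and 4 fell, where 19% of all 20767 genes rose and 16% fell (adjusted p under 0.05, edgeR quasi-likelihood test with Benjamini-Hochberg adjustment over all genes tested, as in all calls below). The median change was 0.13 for members and 0.02 for all genes, on the log2 scale. The largest rises were those of MRPL51 (0.47 ± 0.06 SE), MRPS34 (0.43 ± 0.06), MRPL23 (0.39 ± 0.07), MRPS14 (0.39 ± 0.06), MRPL13 (0.34 ± 0.07) and MRPL41 (0.33 ± 0.1). The 4 that fell were MRPS10 (-0.26 ± 0.05), MRPS18A (-0.2 ± 0.05), MRPL10 (-0.19 ± 0.05) and MRPL15 (-0.13 ± 0.05). At 96 h 4 members rose, MRPL34, MRPL17, MRPS30 and MRPS23, by 0.16 to 0.22, where 3.89% of all genes rose, and 0 fell (3.63% of all genes). A further 20 had an unadjusted p under 0.05, all higher, and DESeq2 called the same 4. The share of all genes at that unadjusted threshold is not given here, so the 20 have no baseline. The count of 4 was 1 without control no-dox replicate 1 or 2 or dox replicate 1 or 3, 7 without no-dox replicate 3 and 10 without dox replicate 2. With the libraries that stand apart left out, 7 rose and 0 fell (4.84% and 5.11% of all genes).

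Below, the response of a targeted line is its log2 change with dox minus the same change in the control line. In the PELO line at 48 h, more members fell than rose: 29 fell (37.2%, against 24.9% of all genes) and 8 rose (10.3%, against 22.9%). The median response was -0.12 for members and -0.04 for all genes. In bulk RNA like this, fewer cells of a type and less RNA per cell cannot be told apart. The control line enters this result: of the 29 that fell, 23 had risen with dox in the control line at 48 h. Within the PELO line alone, with nothing subtracted, 17 members were higher and 18 lower (24.2% and 23.7% of all genes), and 16 of the 29 were lower there. The dox libraries of the 2 lines compared alone gave 17 higher and 25 lower (27.6% and 29.6% of all genes), with 24 of the 29 among the lower. Without PELO no-dox replicate 1 or PELO dox replicate 3 the count of 8 was 5. Without the libraries that stand apart 25 fell and 17 rose (25.9% and 22.7% of all genes).

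MRPL16, MRPL19 and MRPS27, which were lower at both times, are given in full. MRPL16 (ENSG00000166902.5, chr11:59806135-59810872, minus strand, GRCh38) is the counterpart of a bacterial protein close to the peptidyl transferase centre, and its window above has an ETS core just before the start. At 48 h the untreated PELO libraries measured 45.7, 47.9 and 52.1 CPM and the dox-treated ones 37.1, 38.9 and 40.6 CPM, while the control line measured 46.9, 44 and 44.3 CPM without and 50.8, 54.8 and 54.3 CPM with dox. At 96 h the PELO libraries measured 54, 55.3 and 57.5 CPM without and 33.7, 30.8 and 31 CPM with dox, and the control libraries 56, 59.1 and 59.7 CPM without and 59.1, 54.8 and 57.8 CPM with dox. All 6 PELO dox libraries were below every other library of their time. The response was -0.56 ± 0.07 at 48 h (adjusted p = 1.82e-08) and -0.78 ± 0.07 at 96 h (adjusted p = 3.74e-12), a level 41.9% lower, and within the PELO line it was -0.32 and -0.81.

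MRPL19 (ENSG00000115364.14, chr2:75646783-75690851, plus strand), the counterpart of a bacterial protein at the interface of the subunits, measured 86.2, 89.8 and 90.6 CPM in untreated PELO libraries at 48 h and 65.4, 76 and 70.3 CPM in dox-treated ones. At 96 h it measured 105, 106 and 115 CPM without and 86.5, 81.2 and 81.3 CPM with dox. The groups did not overlap at either time, and the control line's dox libraries were at 89.4 to 93.7 CPM at 48 h and 104 to 109 CPM at 96 h. The response was -0.56 ± 0.07 (adjusted p = 1.31e-08) and -0.51 ± 0.07 (adjusted p = 4.68e-08).

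MRPS27 (ENSG00000113048.18, chr5:72219409-72320646, minus strand), a small-subunit protein found only in mitochondria, with pentatricopeptide repeats, measured 152, 157 and 158 CPM in untreated PELO libraries at 48 h and 123, 120 and 122 CPM in dox-treated ones. At 96 h it measured 164, 158 and 180 CPM without and 124, 122 and 116 CPM with dox. The 6 PELO dox libraries lay below all other libraries of the series. The response was -0.51 ± 0.06 (adjusted p = 1.7e-09) and -0.57 ± 0.06 (adjusted p = 8.12e-11). For all 3 genes the call held at both times under each of the 21 alternatives run.

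Other large-subunit genes that fell at 96 h were MRPL11 (-0.64 ± 0.09), whose protein forms the base of the stalk that binds translation factors, MRPL23 (-0.56 ± 0.1, and -0.55 ± 0.1 at 48 h), at the exit of the peptide tunnel, MRPL53 (-0.45 ± 0.11), MRPL28 (-0.45 ± 0.08) and MRPL37 (-0.38 ± 0.07). MRPL11 stood at 60.9 ± 5.75 CPM in untreated and 41.2 ± 2.02 CPM in dox-treated PELO cells at 96 h, and at 60.5 ± 1.82 and 63.5 ± 5.81 CPM in the control line (SD, n = 3). Of the small subunit, MRPS14 (-0.57 ± 0.09 at 48 h and -0.59 ± 0.08 at 96 h) and MRPS34 (-0.66 ± 0.09 and -0.49 ± 0.08) fell most beside MRPS27. MRPS34, a protein found only in mitochondria, measured 52.9, 52.1 and 59.6 CPM in untreated PELO libraries at 48 h and 45.7, 45 and 49.2 CPM in dox-treated ones, and rose in the control line from 45 ± 1.78 to 60.5 ± 3.88 CPM. Its fall within the PELO line was -0.23 ± 0.06, and that of MRPS14 was -0.18 ± 0.06, both smaller than their responses beyond the control line. MRPL51 (-0.48 ± 0.08 at 48 h) was at 116 ± 10.8 and 115 ± 8.99 CPM within the PELO line, where it did not pass the test (-0.02 ± 0.06, adjusted p = 0.866). Of its exon bases 31.3% are shared with NCAPD2 on the other strand, which changed by -0.34 at 48 h and -0.85 at 96 h. How reads were split between the 2 genes bears on the level of MRPL51.

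In the PELO line at 96 h, 25 members fell (32.1%, against 26% of all genes) and 20 rose (25.6%, against 28.7%). These shares are near those of all genes. The median response was -0.01 for members and 0.02 for all genes, so the set as a whole did not move one way, although 45 of its members passed the test. Within the PELO line alone 33 were higher and 22 lower (34.4% and 32.5% of all genes). All 20 that rose and 21 of the 25 that fell were called the same way there. Both comparisons use the same PELO libraries, so their agreement is not an independent check. No member changed 2-fold, against 4049 of all genes tested, and 4 changed by over 1.5-fold. The responses ran from -0.78 to 0.73, and the median SE of a member was 0.08. Without the libraries that stand apart 27 fell and 20 rose (26% and 27% of all genes).

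MRPS17 had the largest rise. It is the counterpart of a bacterial protein that binds the small ribosomal RNA (ENSG00000239789.6, chr7:55951819-55956501, plus strand). At 96 h the untreated PELO libraries measured 17.6, 17.1 and 19.9 CPM and the dox-treated ones 32.4, 30.5 and 31.1 CPM, while the control line measured 20.6, 20.8 and 21.6 CPM without and 21.9, 20.8 and 22.6 CPM with dox. The 3 PELO dox libraries at 96 h were above all other libraries of the series. The response was 0.73 ± 0.08 (adjusted p = 5.36e-10), a level 65.6% higher, and at 48 h it was 0.24 ± 0.08 (adjusted p = 0.0143), a call lost under 5 of 21 alternatives. Of its exon bases 27% are shared with a second annotated locus on the same strand, ENSG00000249773, which changed by 0.71 at 96 h, and with NIPSNAP2, which changed by -0.7, so how reads were split between them bears on its level.

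MRPL49, a large-subunit protein found only in mitochondria (ENSG00000149792.9, chr11:65122183-65127371, plus strand), had the largest rise at 48 h. At that time the untreated PELO libraries measured 32.7, 32.5 and 34.5 CPM and the dox-treated ones 53.9, 53.6 and 51.7 CPM, against 35.3, 37 and 35.5 CPM in the control line with dox. At 96 h it measured 43.2, 42.9 and 45.3 CPM without and 60.3, 54.9 and 56.7 CPM with dox. The groups did not overlap at either time. The response was 0.72 ± 0.07 (adjusted p = 2.07e-11) and 0.35 ± 0.06 at 96 h, and the genes whose exons overlap it on the other strand, FAU and SYVN1, changed by -0.02 and 0.02 at 48 h but rose by 0.26 (adjusted p = 0.0304) and 0.23 (adjusted p = 0.00368) at 96 h.

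Others that rose at 96 h were MRPS6 (0.57 ± 0.08), from 34.8 ± 1.15 to 53.6 ± 1.96 CPM in the PELO line, MRPL36 (0.42 ± 0.1), MRPL32 (0.41 ± 0.11), MRPS12 (0.39 ± 0.08), whose protein lies at the decoding site, and MRPL47 (0.39 ± 0.08). MRPL47 measured 76.4, 76.7 and 84.4 CPM in untreated PELO libraries at 96 h, and the dox-treated ones, at 119, 108 and 112 CPM, were above all other libraries of the series. At 48 h MRPS6 was at 29 ± 2.3 and 32.9 ± 2.2 CPM in PELO cells, where its response of 0.02 ± 0.09 did not pass the test. At 48 h MRPS10 (0.38 ± 0.07), MRPS18A (0.38 ± 0.07), MRPL15 (0.24 ± 0.07) and MRPS31 (0.17 ± 0.07) also rose, the last with a call lost under 12 of 21 alternatives. MRPS10 and MRPS18A had fallen with dox in the control line, and within the PELO line alone they rose by 0.12 ± 0.05 and 0.18 ± 0.05. Pseudogene copies of MRPS31 held 17.3% as many counts as MRPS31 itself, and reads could be split between them.

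**Figure D3:**
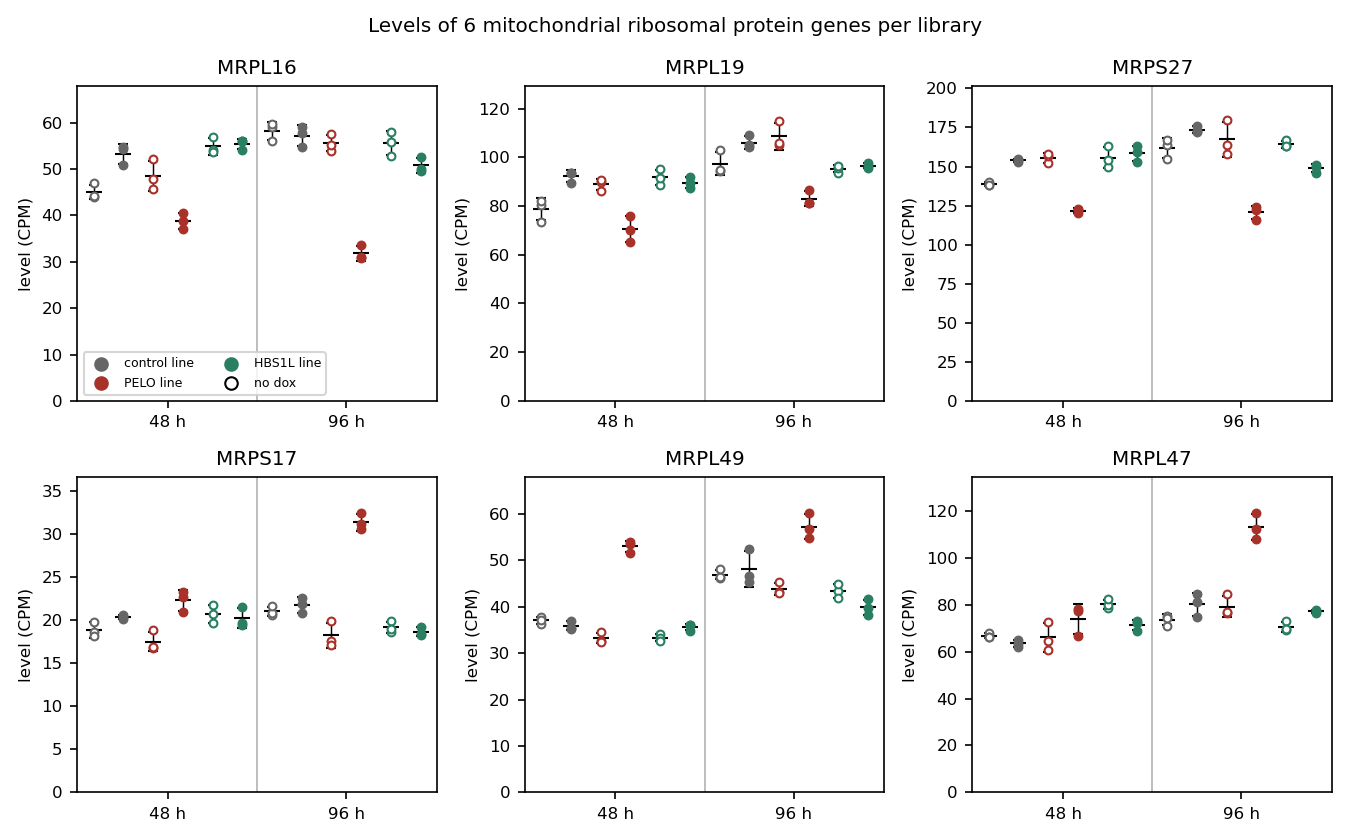
Level in CPM (y axis, from 0) of 6 genes in every library, by time and line, open points without dox and filled points with dox, with the mean and SD of 3 libraries. MRPL16, MRPL19 and MRPS27 are lower in the PELO dox libraries at both times, MRPS17 and MRPL47 are highest in those at 96 h, and MRPL49 is raised at both.

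**Figure D4:**
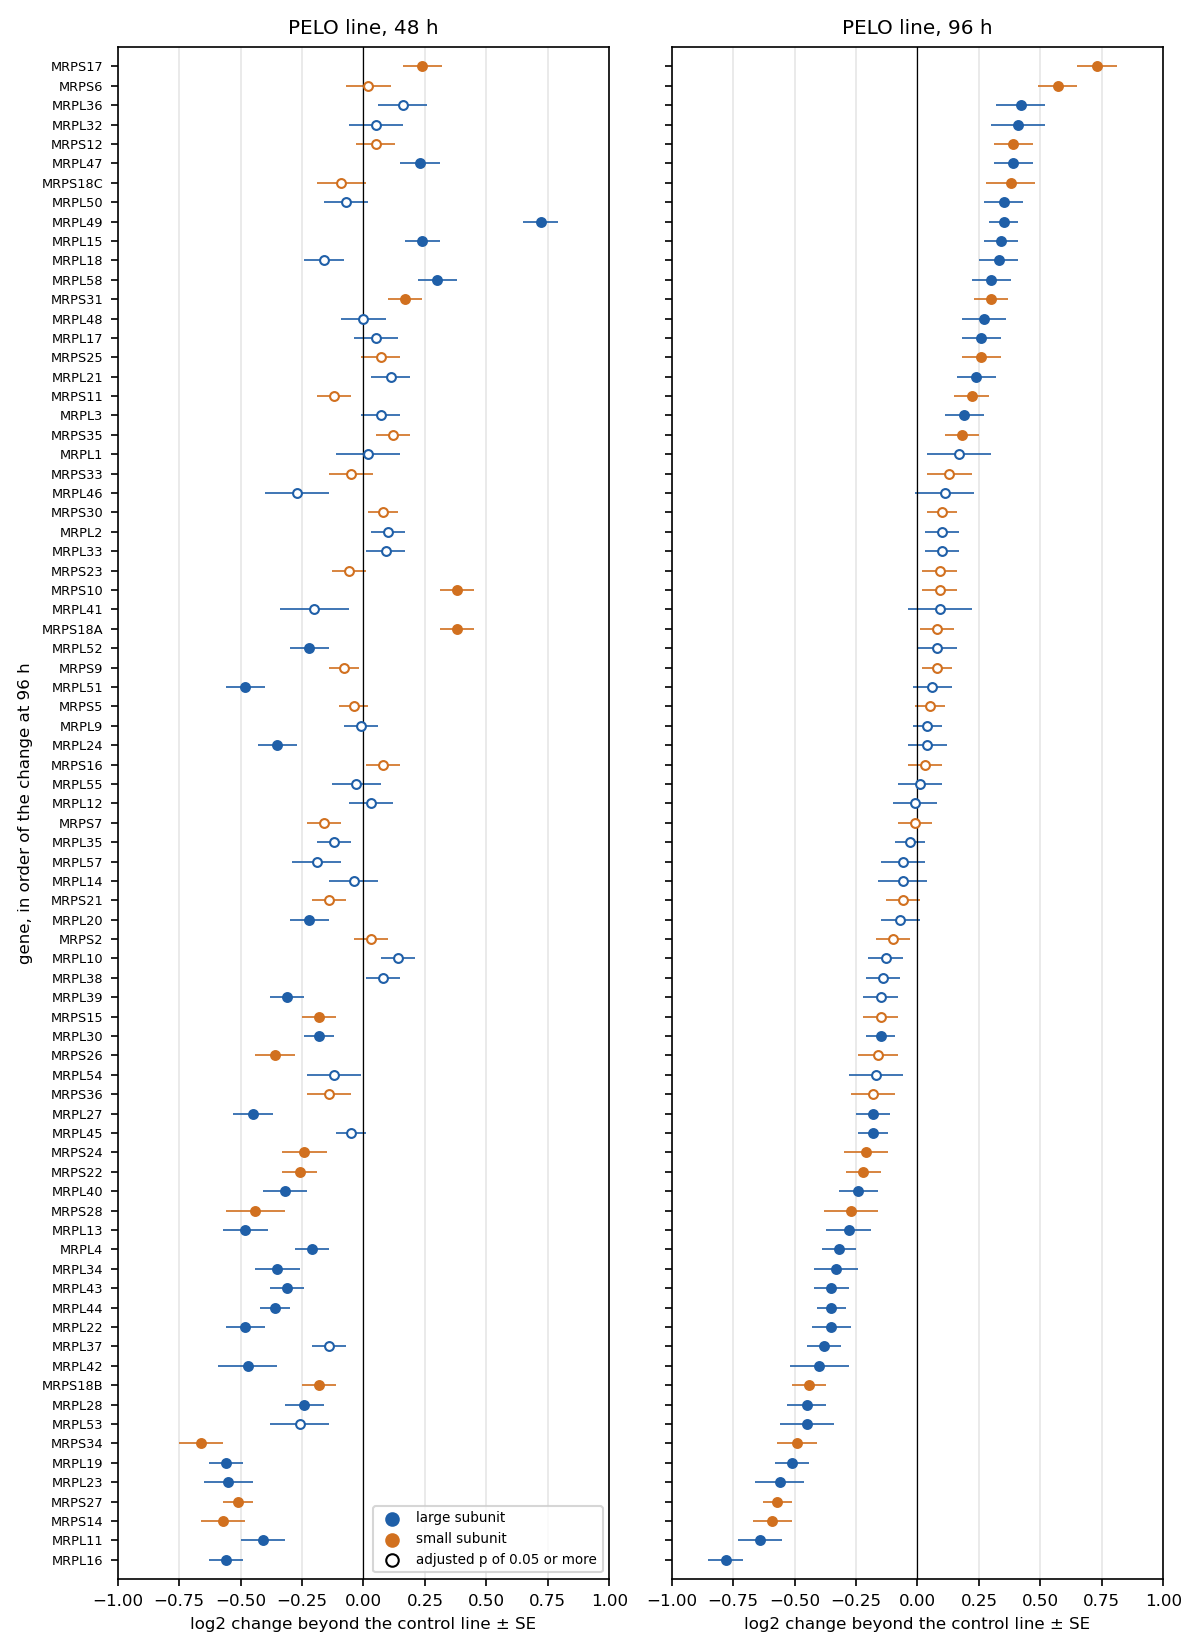
Response of each of the 78 genes in PELO cells with the control line subtracted (x axis, log2, ± SE) at 48 h (left) and 96 h (right), in order of the 96 h value; large subunit blue, small subunit orange, open points not past the test. The 96 h values run from -0.78 (MRPL16) to 0.73 (MRPS17), and 59 of 78 genes have the same sign at both times.

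Of the 78 members 59 had the same sign at both times (75.6%, against 76.4% of all genes), and the times share no libraries. Of the 29 members that fell at 48 h and the 25 that fell at 96 h, 22 were in both sets (75.9% and 88%). Of the 8 and 20 that rose, 6 were in both (75% and 30%), and 0 members passed the test in opposite directions, against 304 of all 20767 genes (1.46%). For all genes, 71.4% of those lower at 48 h and 68.3% of those lower at 96 h were in both sets, and 79.4% and 63.4% of those higher. The response itself differed between the times for 13 members, 9 higher at 96 h (11.5%, against 10.5% of all genes) and 4 lower (5.13%, against 9.98%). Those higher at 96 h included MRPS6 (0.55 ± 0.12), MRPL51 (0.55 ± 0.12), MRPS17 (0.49 ± 0.11), MRPL18 (0.49 ± 0.12), MRPS18C (0.48 ± 0.15) and MRPL50 (0.43 ± 0.12), and the 4 lower were MRPL49 (-0.37 ± 0.09), MRPS18A (-0.3 ± 0.1), MRPS10 (-0.29 ± 0.09) and MRPS18B (-0.26 ± 0.1). The count of 4 was 2 without control dox replicate 1 or PELO no-dox replicate 2 at 48 h or control no-dox replicate 2 at 96 h, 7 without PELO no-dox replicate 3 at 48 h or control dox replicate 2 at 96 h, and 8 without PELO dox replicate 1 at 96 h. Without the libraries that stand apart 8 were higher and 9 lower (11.7% and 11.4% of all genes).

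Both subunits held genes that fell and genes that rose in the PELO line; the difference between subunits was not tested. At 48 h 20 of 49 large-subunit genes fell (40.8%) and 4 rose, while 9 of 29 small-subunit genes fell (31%) and 4 rose. At 96 h 18 large-subunit genes fell (36.7%) and 12 rose (24.5%), while 7 small-subunit genes fell (24.1%) and 8 rose (27.6%). The median response was -0.16 for large and -0.08 for small at 48 h, and -0.06 and 0.05 at 96 h. The large minus small difference of medians was -0.08 at 48 h and -0.105 at 96 h. It was -0.053 at 48 h without PELO dox replicate 2, and at 96 h it was -0.067 and -0.062 without control dox replicates 1 and 3 and -0.152 without replicate 2. Without the libraries that stand apart it was -0.055 and -0.064. Within the PELO line alone it was -0.015 and -0.023. Between the dox libraries of the PELO and control lines it was -0.035 at 48 h and -0.122 at 96 h. In the control line the difference was 0.043 at 48 h and 0.029 at 96 h, and in the HBS1L line -0.014 and 0.003. In each comparison at least 1 large- and 1 small-subunit gene lay on each side of 0.

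In the HBS1L line 7 members passed the test at 48 h and 2 at 96 h. At 48 h 7 members fell (8.97%, against 2.44% of all genes) and 0 rose (1.41% of all genes): MRPS34 (-0.36 ± 0.08), MRPL13 (-0.34 ± 0.09), MRPL51 (-0.34 ± 0.08), MRPL27 (-0.32 ± 0.07), MRPL2 (-0.29 ± 0.07), MRPL18 (-0.28 ± 0.08) and MRPL19 (-0.26 ± 0.07). At an unadjusted p under 0.05 the counts were 23 lower and 1 higher, and DESeq2 called 9 lower and 0 higher. Shares of all genes under these settings are not given here, so these counts have no baseline. The median response was -0.14 for members and -0.01 for all genes. Below 0 were 71 of 78 members, a count also without a share of all genes. This result turns on the control line, where 60 of 78 members were above 0 at 48 h. Within the HBS1L line alone 43 of 78 were below 0, and 12 were called lower and 2 higher (11.4% and 10.1% of all genes). The dox libraries compared with the control line's dox libraries gave 42 higher and 0 lower (9.47% and 13.6% of all genes). MRPS34, for example, measured 65.5, 67.8 and 69.3 CPM without and 69.1, 72.4 and 71.2 CPM with dox in the HBS1L line at 48 h, both above the control line. The count of 7 was 2 to 4 without control no-dox replicate 2 or 3, control dox replicate 2 or 3, HBS1L no-dox replicate 3 or HBS1L dox replicate 3. When the libraries that stand apart were left out, 20 fell and 0 rose (6.61% and 2.42% of all genes).

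At 96 h MRPS27 (-0.24 ± 0.06, adjusted p = 0.00447) and MRPL44 (-0.23 ± 0.06, adjusted p = 0.0153) fell in the HBS1L line (2.56%, against 5.32% of all genes) and 0 members rose (5.41% of all genes). Within the HBS1L line alone 8 were higher and 3 lower (11% and 8.9% of all genes), and against the control dox libraries 1 was higher and 21 lower (14.9% and 14.8% of all genes). The main comparison had 4 lower and 3 higher at an unadjusted p under 0.05 and 0 higher by DESeq2, again without shares of all genes. MRPS27 measured 163, 167 and 163 CPM without and 151, 150 and 146 CPM with dox, with no overlap, and kept its call under all 21 alternatives. The fall of MRPL44, a protein with an RNase III-like fold, was lost without control dox replicate 3 or HBS1L no-dox replicate 2, where 1 member was called. Without the libraries that stand apart 2 fell and 1 rose (9.48% and 8.19% of all genes). Both genes also fell in the PELO line at 96 h (-0.57 ± 0.06 and -0.35 ± 0.06). The PELO and HBS1L responses share the control libraries, and no member was called in opposite directions in the 2 lines at the same time, against 0.173% of all genes at 48 h and 3.09% at 96 h. Across times MRPL18 was lower in the HBS1L line at 48 h and higher in the PELO line at 96 h (0.33 ± 0.08).

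The direct test of PELO against HBS1L, in which the control line cancels, called 15 members higher and 11 lower at 48 h (19.2% and 14.1%, against 21.9% and 21.3% of all genes), and 19 higher and 21 lower at 96 h (24.4% and 26.9%, against 29.1% and 26.4%). At 48 h the largest differences were MRPL49 (0.58 ± 0.07), MRPL2 (0.39 ± 0.07), MRPS17 (0.38 ± 0.08), MRPS10 (0.35 ± 0.07), MRPS18A (0.34 ± 0.07) and MRPL47 (0.33 ± 0.08) upward and MRPS27 (-0.38 ± 0.06), MRPL23 (-0.34 ± 0.1), MRPL16 (-0.34 ± 0.07), MRPS14 (-0.34 ± 0.09), MRPS34 (-0.3 ± 0.08) and MRPL19 (-0.3 ± 0.07) downward. At 96 h they were MRPS17 (0.82 ± 0.08), MRPS6 (0.59 ± 0.08), MRPL49 (0.51 ± 0.07), MRPL50 (0.46 ± 0.08), MRPL36 (0.45 ± 0.1) and MRPL15 (0.43 ± 0.07) upward and MRPL16 (-0.68 ± 0.07), MRPL11 (-0.64 ± 0.09), MRPL23 (-0.63 ± 0.1), MRPL53 (-0.52 ± 0.11), MRPS14 (-0.48 ± 0.08) and MRPL28 (-0.48 ± 0.08) downward. With unscaled library sizes the 48 h counts were 8 higher and 25 lower, and the median of all genes moved from -0.025 to -0.125. Without PELO no-dox replicate 1 the count of 15 was 9, and without the libraries that stand apart the 48 h counts were 28 higher and 9 lower (22.9% and 21% of all genes) and the 96 h counts 19 and 27 (29.1% and 27.7%).

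**Figure D5:**
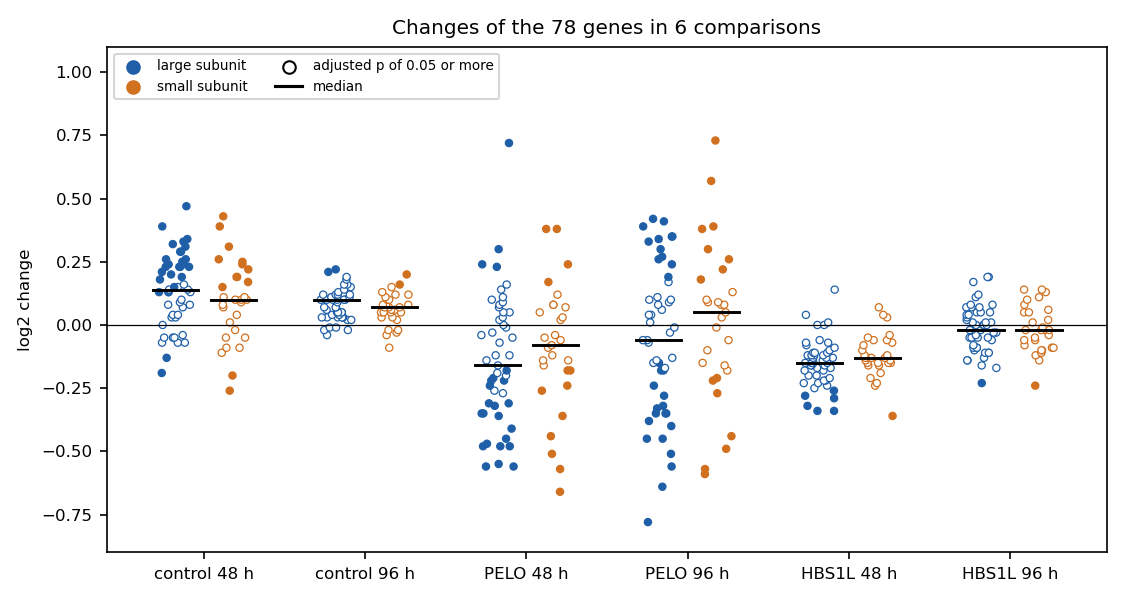
Log2 change (y axis) of the 78 genes in 6 comparisons (x axis): dox against no dox in the control line, and the PELO and HBS1L responses beyond it, at 48 h and 96 h; large subunit blue, small subunit orange, open points not past the test, bars at the medians. The PELO columns span -0.66 to 0.72 and -0.78 to 0.73, and the HBS1L columns -0.36 to 0.14 and -0.24 to 0.19.

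Members with further known roles were read one by one. MRPL58, a peptidyl-tRNA hydrolase built into the large subunit that can release stalled mitochondrial ribosomes, rose by 0.3 ± 0.08 at both times in the PELO line. Its 48 h level went from 33.4 ± 3.1 to 39.2 ± 2.9 CPM and its 96 h level from 36.2 ± 0.28 to 45.7 ± 0.371 CPM. In the HBS1L line its response was 0.01 ± 0.08 and 0.19 ± 0.08, neither past the test. Within the HBS1L line alone MRPL58 rose with dox at 96 h (0.22 ± 0.05, adjusted p = 0.00273, edgeR). At 48 h its change there, -0.06 ± 0.05, did not pass. MRPL12, a stalk protein that also binds the mitochondrial RNA polymerase, had responses of 0.03 ± 0.09 and -0.01 ± 0.09 in the PELO line, and 68.2% of its exon bases lie in another annotated locus. MRPL41 (-0.2 ± 0.14 and 0.09 ± 0.13) and MRPS36 (-0.14 ± 0.09 and -0.18 ± 0.09) did not pass either. MRPS36, despite its name, is known as a part of the 2-oxoglutarate dehydrogenase complex.

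The 3 MRPS18 paralogs, which derive from 1 bacterial protein and take different places in the ribosome, differed. MRPS18B fell at 48 h (-0.18 ± 0.07, adjusted p = 0.0276) and 96 h (-0.44 ± 0.07, adjusted p = 6.54e-07), MRPS18C rose at 96 h (0.38 ± 0.1, adjusted p = 0.00152) and MRPS18A rose at 48 h. MRPS18A was at 40.3 ± 1.04 and 43.4 ± 0.153 CPM in the PELO line at 96 h, where its response of 0.08 ± 0.07 did not pass. The 48 h call of MRPS18B was lost under 7 of 21 alternatives. MRPS18A and MRPS30 sit in the large subunit in known structures. MRPS30 had responses of 0.08 ± 0.06 and 0.1 ± 0.06 that did not pass, although within the PELO line at 96 h it rose from 153 ± 8.54 to 189 ± 5.09 CPM (0.3 ± 0.04, adjusted p = 2.18e-08), as it also rose in the control line (0.2 ± 0.04). With MRPS18A and MRPS30 counted as large and MRPS36 left out, a grouping chosen after the data were seen, the large minus small difference in the PELO line was -0.051 at 48 h and -0.072 at 96 h.

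The lists that follow are set beside the shares of all genes in the same comparison, 22.9% higher and 24.9% lower at 48 h and 28.7% and 26% at 96 h, and beside the PELO line alone, where 24.2% of all genes were higher and 23.7% lower at 48 h and 34.4% and 32.5% at 96 h. The lists are small and were not tested as sets.

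Of the 5 proteins of the mitochondrial ribosome named outside the MRPL and MRPS scheme, 1 rose and 4 fell in the PELO line at 48 h, and 1 rose and 3 fell at 96 h. DAP3, a GTP-binding protein of the small subunit, rose by 0.5 ± 0.06 at 48 h and 0.46 ± 0.06 at 96 h, from 160 ± 5.95 to 227 ± 6.56 CPM at the later time. CHCHD1, also of the small subunit, fell by 0.8 at 48 h and by 0.75 at 96 h on the log2 scale, from 31.2 ± 2.93 to 20.7 ± 1.46 CPM at 96 h. PTCD3 (-0.24 ± 0.05 and -0.25 ± 0.05) also fell at both times. With nothing subtracted 1 rose and 2 fell at 48 h, and 1 and 3 at 96 h. The 48 h changes were then 0.26 ± 0.04 for DAP3, -0.35 ± 0.08 for CHCHD1 and -0.18 ± 0.03 for PTCD3, while AURKAIP1 (-0.05 ± 0.07) and GADD45GIP1 (0.02 ± 0.08), which fell with the control subtracted, did not pass.

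Of 9 initiation and elongation factors, 5 fell and 0 rose at 48 h (median -0.26), and 4 fell and 2 rose at 96 h (median -0.09). The elongation factors TUFM (-0.26 ± 0.07 and -0.57 ± 0.07) and TSFM (-0.49 ± 0.07 and -0.47 ± 0.07) fell at both times, and the initiation factor MTIF2 rose at 96 h (0.3 ± 0.05). In PELO cells alone 2 of the 9 rose, MTIF2 (0.09 ± 0.03) and TACO1 (0.28 ± 0.06), and 7 fell at 48 h, TUFM by 0.23 and TSFM by 0.32, and 4 rose and 4 fell at 96 h. Of 8 termination, recycling and rescue genes, 3 rose and 3 fell at 48 h, and 3 rose and 1 fell at 96 h. The release factor gene MTRF1L (0.88 ± 0.06 and 0.94 ± 0.06) and the peptidyl-tRNA hydrolase gene PTRH2 (0.89 ± 0.07 and 0.99 ± 0.07) rose at both times; the 96 h level of MTRF1L was 38.8 ± 1.8 CPM in untreated and 79.9 ± 2.9 CPM in dox-treated PELO cells. With nothing subtracted 4 of the 8 rose and 2 fell at 48 h. MTRF1L rose by 0.58 ± 0.04 and PTRH2 by 0.57 ± 0.05, and the 2 that fell were MTRF1 (-0.33 ± 0.1) and ANGEL2 (-0.27 ± 0.04). At 96 h 3 rose and 3 fell, with 1.04 for both MTRF1L and PTRH2.

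Of 30 assembly and RNA modification genes, 11 rose and 9 fell at 48 h, and 8 rose and 13 fell at 96 h (medians -0.01 and -0.08). MIEF1 (0.56 ± 0.07) and MTG2 (0.5 ± 0.08) rose and TRUB2 (-0.57 ± 0.06) and MALSU1 (-0.69 ± 0.09) fell at 48 h, and at 96 h MRM2 (0.68 ± 0.07) and MTERF3 (0.77 ± 0.09) rose and NOA1 (-1.12 ± 0.06) and TRUB2 (-0.66 ± 0.06) fell. In PELO cells alone 11 rose and 8 fell at 48 h, and 10 and 15 at 96 h. There the 48 h changes were 0.35 for MIEF1, 0.44 for MTG2, -0.35 for TRUB2 and -0.16 for MALSU1. Of 14 genes of mitochondrial transcription and RNA stability, 4 rose and 3 fell at 48 h, and 7 rose and 2 fell at 96 h, among them SUPV3L1 (0.78 ± 0.05 at 48 h) and TFB2M (0.6 ± 0.07 at 96 h) upward and the RNA polymerase POLRMT (-0.2 ± 0.06 and -0.41 ± 0.06) downward. The counts in PELO cells alone were 4 that rose and 3 that fell at 48 h, SUPV3L1 by 0.29 upward and POLRMT at -0.13, and 11 rose and 2 fell at 96 h. Of 19 aminoacyl-tRNA synthetases that work in mitochondria, 2 rose and 11 fell at 48 h, and 5 rose and 10 fell at 96 h. GARS1, which also serves the cytosol, rose (1.42 ± 0.05 and 0.82 ± 0.05), while TARS2 (-0.53 ± 0.06 and -0.45 ± 0.06) and EARS2 (-0.52 ± 0.07 and -0.73 ± 0.06) fell. With nothing subtracted 3 rose and 7 fell at 48 h, with GARS1 at 0.28, TARS2 at -0.25 and EARS2 at -0.27, and 5 rose and 10 fell at 96 h. GARS1 had fallen by 1.14 with dox in the control line at 48 h.

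Of 11 measured regulators of nuclear genes for mitochondria, 7 rose and 1 fell at 48 h, and 8 rose and 0 fell at 96 h (medians 0.5 and 0.57). ATF5 (2.21 ± 0.06 and 1.53 ± 0.06) and ATF4 (1.89 ± 0.09 and 1.94 ± 0.09), factors of the integrated stress response, were among those that rose. In PELO cells alone 7 rose and 1 fell at 48 h, and 7 and 0 at 96 h, with ATF5 at 0.47 and 1.43 and ATF4 at 0.62 and 1.78. The 1 that fell there at 48 h was GABPA (-0.24 ± 0.04). GABPB1 (0.8 ± 0.06), NRF1 (0.43 ± 0.06) and MYC (0.62 ± 0.04) were among the 7 that rose there. The 48 h ATF4 level was 565 ± 15 CPM in untreated and 234 ± 6.45 CPM in dox-treated control cells, and 475 ± 20.3 against 728 ± 13.5 CPM for PELO cells. In the control line ATF4 was thus lower with dox at 48 h, the time at which 35 members rose with dox there. The 96 h levels were 230 ± 19.3 and 206 ± 13.1 CPM for control cells, and 234 ± 28.3 and 803 ± 27.4 CPM for PELO cells. The part of this difference in the members' values was not tested.

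Of the 15 rRNAs and messengers of the mitochondrial genome, 0 passed the test in the PELO line at 48 h and 11 fell at 96 h (median -0.77), where 0 rose. MT-RNR1, the small rRNA, was at 461 ± 76.9 CPM in untreated and 282 ± 42 CPM in dox-treated PELO cells at the later time, and at 264 ± 84.4 and 343 ± 40.8 CPM in the control line, a response of -1.09 ± 0.23 (adjusted p = 0.000198). MT-RNR2, the large rRNA, changed by -0.96 ± 0.25 (adjusted p = 0.00173). With nothing subtracted 1 of the 15 fell at 48 h and 11 at 96 h, with MT-RNR1 at -0.71 ± 0.16 (adjusted p = 0.000357) and MT-RNR2 at -0.54 ± 0.17 (adjusted p = 0.00855). Over the same libraries the sum over the 78 nuclear genes was 5006 ± 240 and 5217 ± 221 CPM. Mitochondrial genome counts made up 0.922% to 3.77% of a library, and in the control line without dox at 96 h they ran from 0.922% to 1.78%, a wide spread within 1 group.

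Length, base composition and gene overlap were set beside the 96 h calls. At 96 h the median transcript was 1483 bases for the 25 lower, 1499 for the 20 higher and 1296 for the other 33, with a GC content of 50.8%, 47.3% and 52.3%. Across the 78 genes Spearman's rho between GC content and the 96 h response was -0.22, against -0.2 across 13933 genes tested, and between transcript length and response 0, against 0.08. These are descriptions across genes, which are not independent replicates. Exon bases shared with another annotated gene made up at least 10% of 26 members, of which 9 fell, 5 rose and 12 did not pass at 96 h. The strand setting of the counting is not given in the sources used here, so reads of such pairs may not be told apart. In 11 pairs of a member and an overlapping gene both passed the test at 96 h, 7 in the same and 4 in opposite directions. Those that moved together were MRPS17 with ENSG00000249773, MRPL49 with FAU and with SYVN1, MRPS25 with NR2C2 (0.26 and 0.64), MRPL34 with ABHD8 (-0.33 and -0.78), MRPL53 with CCDC142 (-0.45 and -0.26) and MRPL30 with ENSG00000241962 (-0.15 each). In the opposite pairs MRPS12 rose while SARS2 fell (0.39 and -1.01), MRPS18C rose while ABRAXAS1 fell (0.38 and -0.34), MRPL43 fell while TWNK rose (-0.35 and 0.69), and MRPS17 rose while NIPSNAP2 fell.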

How the data were processed

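Polyadenylated RNA of 36 libraries was measured. The deposited table holds expected counts per gene: 45.6% of the values above 0 are not whole, and they were rounded for the tests. The authors also deposited log2 CPM values with an offset of 0.5 for 17138 genes. The submitters' processing notes name DRAGEN, featureCounts, Subread, edgeR and limma and the build GRCh38.p13; for versions, annotation and strand setting the answer is: not given in the sources used here. Libraries were grouped by their titles. Genes with low counts were removed with filterByExpr (minimum count 10, minimum total 15), which kept 20767 genes and at least 99.9% of the counts of a library. edgeR 4.0.16 (R 4.3.3) fitted 1 mean per group over all libraries with TMM scaling and a robust quasi-likelihood F test, and p-values were adjusted by Benjamini-Hochberg over all genes tested, with a threshold of 0.05. The script was tested on simulated data. Gene positions are from GENCODE 29. Alternatives were DESeq2 1.42.0, limma 3.58.1 on the deposited log2 values, unscaled library sizes, no filter, only the groups compared, a replicate block, comparisons within a line or of dox libraries alone, each library left out and, chosen after the data were seen, all 8 libraries that stand apart left out.

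Genes named were MRPL16, MRPL19, MRPS27, MRPL58, MRPL12, MRPL41, MRPS30, MRPS36 and the MRPS18 paralogs. The 6 largest rises and falls past the threshold in each comparison and the extremes per length were named as well. For each related list the rule was the 2 genes with the smallest adjusted p in each direction. It was not followed for every list, and some genes that fell are named only within the PELO line or not at all. MRPL28, MRPL37, MRPL43, MRPS12, MRPS18C, MRPS31, MRPL40, MTRF1, ANGEL2, GABPA, GABPB1, NRF1, MYC and neighbouring genes were added after their values were seen where outside these rules. The members and lists were chosen with earlier results of these data known.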

Additional observations from a re-analysis of the deposited data

Results flagged for a closer look

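The PELO and HBS1L responses differed by a direct test at both times. At 48 h 15 members were higher and 11 lower in the PELO line than in the HBS1L line (19.2% and 14.1%, against 21.9% and 21.3% of all genes), with MRPL49 at 0.58 and MRPS27 at -0.38 on the log2 scale. With unscaled library sizes those counts were 8 and 25, and without the libraries that stand apart 28 and 9. At 96 h 19 were higher and 21 lower (24.4% and 26.9%, against 29.1% and 26.4%), with MRPS17 at 0.82 and MRPL16 at -0.68. The PELO response also differed between the times: 9 members were higher at 96 h than at 48 h and 4 lower (11.5% and 5.13%, against 10.5% and 9.98% of all genes), with MRPS6 at 0.55 and MRPL49 at -0.37. With all libraries, these shares were near or below those of all genes.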

How the results depend on the processing

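Of the member calls in the PELO line, 13 of 29 lower and 4 of 8 higher at 48 h, and 17 of 25 lower and 13 of 20 higher at 96 h, held under all 21 alternatives; in the HBS1L line 0 of 7 at 48 h and 1 of 2 at 96 h did. What moved most was the control subtracted. Within a line, with nothing subtracted, the PELO line had 17 higher and 18 lower at 48 h and 33 higher at 96 h, with large minus small differences of -0.015 and -0.023, and the HBS1L line had 2 higher and 12 lower at 48 h, with a difference of 0.025, and 8 higher at 96 h. With dox libraries alone, the PELO line had 17 higher at 48 h, and differences of -0.035 at 48 h and -0.122 at 96 h. The HBS1L line then had 42 higher and 0 lower at 48 h and 1 higher and 21 lower at 96 h. Within the PELO line at 48 h MRPL52 was at 0 and MRPL20 at 0.09, and with dox alone MRPS11 was at -0.02 at 96 h. In the HBS1L line at 48 h MRPS34, MRPL27, MRPL51, MRPL18, MRPL2 and MRPL13 were at 0.23, 0.11, 0.2, 0.21, 0.18 and 0.12 with dox alone, and MRPS34, MRPL51 and MRPL18 at 0.07, 0.13 and 0.04 within the line. With unscaled library sizes 1 member was higher in the control line at 96 h and 1 in the HBS1L line at each time, and PELO against HBS1L at 48 h gave 8 higher and 25 lower. With no filter, 7 were higher in the control line at 96 h, 5 higher in the PELO line at 48 h, 1 lower in the HBS1L line at 96 h and 1 lower in the PELO line at 96 h than at 48 h. With only the groups compared, 0 were higher in the control line at 96 h, 12 lower in the HBS1L line at 48 h and 4 higher in the PELO line at 96 h than at 48 h. Without the 8 libraries that stand apart, an alternative added after the data were seen, the higher counts were 7 in the control line at 96 h, 17 in the PELO line at 48 h, 1 in the HBS1L line at 96 h and 28 in PELO against HBS1L at 48 h, the lower counts were 20 in the HBS1L line at 48 h and 9 in the PELO line at 96 h against 48 h, and the PELO difference of subunits at 96 h was -0.064. With the subunits by structure, the PELO difference at 48 h was -0.051. Beyond the control subtraction, which changes the contrast itself, the cause was not tested.

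With 1 library left out, the higher counts ran from 24 to 36 (control line, 48 h), 1 to 10 (control line, 96 h), 5 to 9 (PELO, 48 h), 14 to 20 (PELO, 96 h), 9 to 20 and 13 to 19 (PELO against HBS1L, 48 h and 96 h) and 6 to 11 (PELO, 96 h against 48 h), and stayed at 0 for HBS1L at both times. The lower counts ran from 3 to 4, 0 to 0, 22 to 33, 22 to 33, 8 to 14, 18 to 27 and 2 to 8 in the same order, and from 2 to 10 and 1 to 2 for HBS1L. The large minus small difference ran from 0.039 to 0.057 and 0.008 to 0.03 in the control line, -0.095 to -0.053 and -0.152 to -0.062 in the PELO line, and -0.028 to 0.001 and -0.008 to 0.027 in the HBS1L line, at 48 h and 96 h. Pairing by replicate number was checked only between libraries with and without dox of the same line and time. Of these same-numbered pairs 0 of 18 correlated above 0.1 (r from -0.191 to 0.0958), and 4 of 18 libraries without dox correlated best with their own number. Links by replicate number across lines or times were not checked. The libraries that stand apart were replicate 3, except PELO dox replicate 1 at 48 h and at 96 h. With the replicate block the PELO counts were 8 higher and 29 lower at 48 h and 20 higher and 25 lower at 96 h, and no count moved by over 1.5 times.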
